A study of Mus musculus with 2 samples.

Results

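The Mir135 family of the mouse consists of 3 miRNA genes, Mir135a-1, Mir135a-2 and Mir135b. They were taken by Ensembl identifier from the count tables of embryonic neural tube, and all 3 were found among 1973 rows of miRNA genes. The samples were 2 biological replicates of a single group, neural tube of strain B6NCrl at embryonic day 11.5. Each was a pool of male and female embryos, 109 in replicate 1 and 88 in replicate 2, with no mutation, treatment or second stage. A pooled tube mixes all levels of the axis and all its cell types, so the data cannot place a miRNA in a region or a cell. Small RNA was sequenced, and reads on the gene's own strand were counted. Levels are counts per 1000000 own-strand counts on miRNA genes (CPM), given as mean ± SD over n = 2.

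MicroRNAs are cut from hairpin precursors, first in the nucleus and then in the cytoplasm, and guide Argonaute proteins to matching sites in mRNAs. Pairing rests mainly on the seed, bases 2 to 8 of the mature strand. The miR-135 family is known from brain and spinal cord. The tumour suppressor Apc, which restrains Wnt signalling, is a described target. In the embryonic midbrain, miR-135a is known to act on Lmx1b and the Wnt pathway, and in serotonin neurons on the serotonin transporter and the receptor Htr1a.

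The mature strands decide which reads could be tied to a gene, so they are shown first, from RefSeq on GRCm38.p6, written 5′ to 3′ with the seed in capitals.
mmu-miR-135a-5p (Mir135a-1 and Mir135a-2): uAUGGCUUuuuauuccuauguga
mmu-miR-135a-1-3p (Mir135a-1): uAUAGGGAuuggagccguggcg
mmu-miR-135a-2-3p (Mir135a-2): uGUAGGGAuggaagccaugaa
mmu-miR-135b-3p (Mir135b): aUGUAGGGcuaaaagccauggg
Mir135b also gives mmu-miR-135b-5p, which the RefSeq list used here lacks, so its strand and seed are not shown. The 5p strand of both Mir135a genes was the same molecule, 23 nt long. The 3 listed 3p strands each had a seed of their own. None of the 4 seeds printed here was found in a mature strand of a gene outside the family, among 1738 entries of the table.

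Hairpins of 2 members show how close the family is on the 5p side. In Mir135a-2 the capitals mark the longest run that is also in the Mir135a-1 hairpin. In Mir135b they mark the bases that match miR-135a-5p where it fits best.
Mir135a-2 hairpin: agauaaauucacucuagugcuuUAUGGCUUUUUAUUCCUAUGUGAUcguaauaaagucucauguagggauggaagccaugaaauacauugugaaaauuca
Mir135b hairpin: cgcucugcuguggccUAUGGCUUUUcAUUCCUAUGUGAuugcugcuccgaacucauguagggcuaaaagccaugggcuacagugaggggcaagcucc
The run shared by the 2 Mir135a hairpins is 24 nt long and covers all of miR-135a-5p and 1 base more. Against Mir135b the longest shared run was 14 nt for Mir135a-1 and 13 nt for Mir135a-2. The Mir135b hairpin matched miR-135a-5p at 22 of 23 bases, the seed included. The mismatch was U11C, which gives the base of miR-135a-5p, its position counted from 1 at the 5′ end of that strand, and the base of the hairpin.

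**Figure D1:**
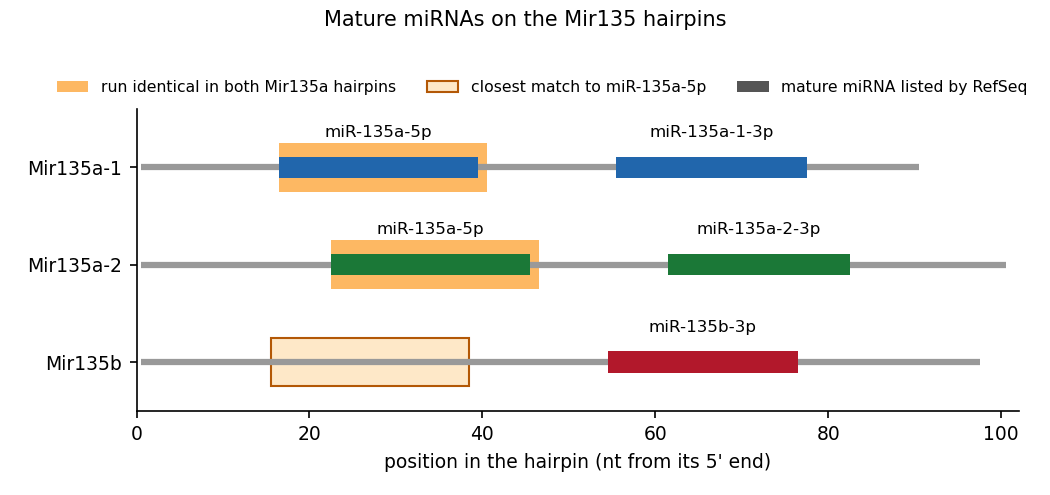
The 3 Mir135 hairpins drawn to scale, with position in nt from the 5′ end on the x axis. Coloured bars are mature strands listed by RefSeq, orange boxes the 24 nt run found in both Mir135a hairpins, and the outlined box the stretch of Mir135b that matched miR-135a-5p at 22 of 23 bases. The orange boxes cover miR-135a-5p and leave both Mir135a 3p strands outside.

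This bears on every value of the Mir135a genes. Reads mapped to several places were deposited in a row of their own and counted for no gene, with 25.2% of all reads of replicate 1 and 27.3% of those of replicate 2 in that row. A read that lies wholly inside the shared run occurs in both Mir135a genes. Of the stretches of 22 nt in each hairpin, 3 of 69 in Mir135a-1 and 3 of 79 in Mir135a-2 were also found in another miRNA hairpin of GENCODE M21, against 0 of 76 in Mir135b. The counts of the Mir135a genes are therefore counts of reads that tell the copies apart, and leave out reads of miR-135a-5p that lie inside the shared run. The tables hold 1 count per hairpin, so the 5p and 3p strands were not told apart.

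Each gene sits in a different setting on GRCm38. Mir135b (ENSMUSG00000065435.1) spans bases 132198088 to 132198184 of chromosome 1, plus strand, in introns of 2 protein-coding genes of that strand, Lemd1 and AC124108.1. Mir135a-2 (ENSMUSG00000065524.1) spans bases 92072086 to 92072185 of chromosome 10, minus strand, in an intron of Rmst, a long noncoding RNA known from neuronal differentiation. Mir135a-1 (ENSMUSG00000065407.1) spans bases 106154124 to 106154213 of chromosome 9, plus strand, in an intron of the noncoding D030055H07Rik. It is opposite the 3′ UTR of Glyctk, which encodes glycerate kinase. Reads on the opposite strand of a hairpin were 0 for all 3 genes in both libraries, which allows up to 3 counts, or 0.809 CPM in replicate 1 and 0.740 CPM in replicate 2.

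Mir135b supplied most of the family's counted reads. It held 9600 counts in replicate 1 and 9428 in replicate 2, or 2589 CPM (95% Wilson interval 2537 to 2641) and 2325 CPM (2278 to 2372). Its mean of 2457 ± 187 CPM placed it at rank 64 of 1973 genes, above 91.2% of the 724 genes with any count. It stood at rank 63 in each library. Intervals and limits take reads as independent molecules and hold no error beyond counting.

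Mir135a-1 stood above 72.4% of the genes with any count. It held 402 and 375 counts, or 108 CPM (98.3 to 120) in replicate 1 and 92.5 CPM (83.6 to 102) in replicate 2. The mean was 100 ± 11.3 CPM at rank 200. Mir135a-2 was lower, with 273 and 287 counts, or 73.6 CPM (65.4 to 82.9) and 70.8 CPM (63.0 to 79.4). Its mean was 72.2 ± 2.02 CPM at rank 227. The lowest of the Mir135a-1 libraries stood above the highest of the Mir135a-2 libraries, and both lay far below Mir135b.

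**Figure D2:**
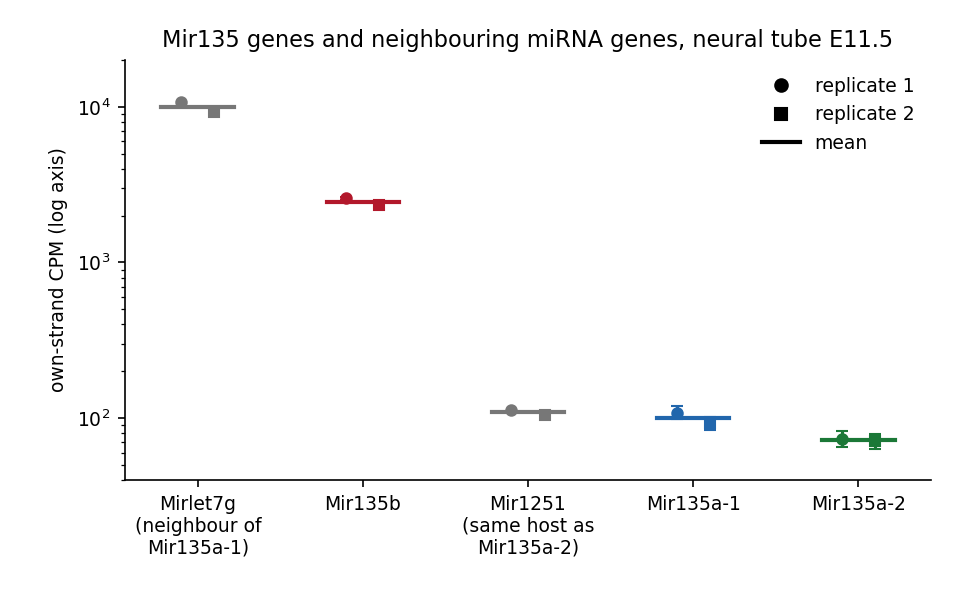
Own-strand CPM on a log axis for the 3 Mir135 genes and for 2 miRNA genes near them, with circles for replicate 1, squares for replicate 2 and a line at the mean. Error bars on the Mir135 genes are 95% Wilson intervals. Mir135b sits at 2589 and 2325 CPM, and the Mir135a genes sit between 70.8 and 108 CPM.

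The order Mir135b, Mir135a-1, Mir135a-2 held in both libraries. Counts of Mir135b exceeded those of Mir135a-1 by 23.9-fold in replicate 1 (95% exact interval 21.6 to 26.5) and 25.1-fold in replicate 2 (22.7 to 27.9). They exceeded those of Mir135a-2 by 35.2-fold (31.2 to 39.8) and 32.9-fold (29.2 to 37.1). The gap between the Mir135a copies was much smaller, at 1.47-fold in replicate 1 (1.26 to 1.72) and 1.31-fold in replicate 2 (1.12 to 1.53). With 2 libraries per gene, an exact unpaired permutation test cannot give a two-sided p below 0.333. The genes share the libraries, and pairing leaves still fewer arrangements, so no p is given for this order. Set per length of hairpin, the levels were 2533 ± 192 CPM per 100 nt for Mir135b, 112 ± 12.5 for Mir135a-1 and 72.2 ± 2.02 for Mir135a-2, in the same order.

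Shares within the family do not depend on how the libraries are scaled. Mir135b took 93.43% of the 10275 family counts in replicate 1 (95% Wilson interval 92.9 to 93.9) and 93.44% of 10090 in replicate 2 (92.9 to 93.9). Mir135a-1 took 3.91% (3.55 to 4.30) and 3.72% (3.36 to 4.10). Mir135a-2 took 2.66% (2.36 to 2.99) and 2.84% (2.54 to 3.19). For each gene the intervals of both libraries overlapped, so a change in the make-up of the family between the pools was not detectable at this depth.

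These shares cover only the reads counted for a gene. Both Mir135a genes together held 675 counts in replicate 1 and 662 in replicate 2, which Mir135b exceeded by 8925 and 8766. These differences equal 0.414% of the reads mapped to several places in replicate 1 and 0.420% in replicate 2. How many of those reads came from miR-135a-5p was not analysed here. The order of Mir135b over the Mir135a genes is thus an order of counted reads, and the amount of mature miR-135a relative to miR-135b was not measured.

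The Mir135a copies can be set beside other genes that carry the same mature strand in more than 1 place. RefSeq lists 64 such pairs of mouse genes, of which 24, made up of 44 genes, had at least 10 summed counts in both members. In these pairs the higher copy exceeded the lower by 3.96-fold at the median, over a range from 1.39-fold to 82.2-fold. By the mean log2 ratio of both libraries, Mir135a-1 over Mir135a-2 was the smallest of the 24, at 0.47. The next were Mirlet7a-1 over Mirlet7c-2 at 0.48, Mir125b-1 over Mir125b-2 at 0.56 and Mir128-1 over Mir128-2 at 0.64. First place was narrow and depended on the library. In replicate 1 Mirlet7a-1 over Mirlet7c-2 was smaller, at 0.363 against 0.557 for the Mir135a copies. In replicate 2 the Mir135a copies were at 0.385, with Mir125b-1 over Mir125b-2 at 0.393. At the other end Mir9-3 exceeded Mir9-2 by 6.36 on the log2 scale. In all 24 pairs the same gene was the higher in both libraries. A pair needed only 1 shared mature strand, so not every pair holds copies of 1 miRNA. Mirlet7c-2, for example, was paired with Mirlet7a-1 and with Mirlet7c-1. The ratio of the Mir135a copies moved between the libraries by 0.17 on the log2 scale, against a median of 0.19 over the pairs. These ratios describe the same 2 libraries and depend on how much of each hairpin is unlike its copy.

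**Figure D3:**
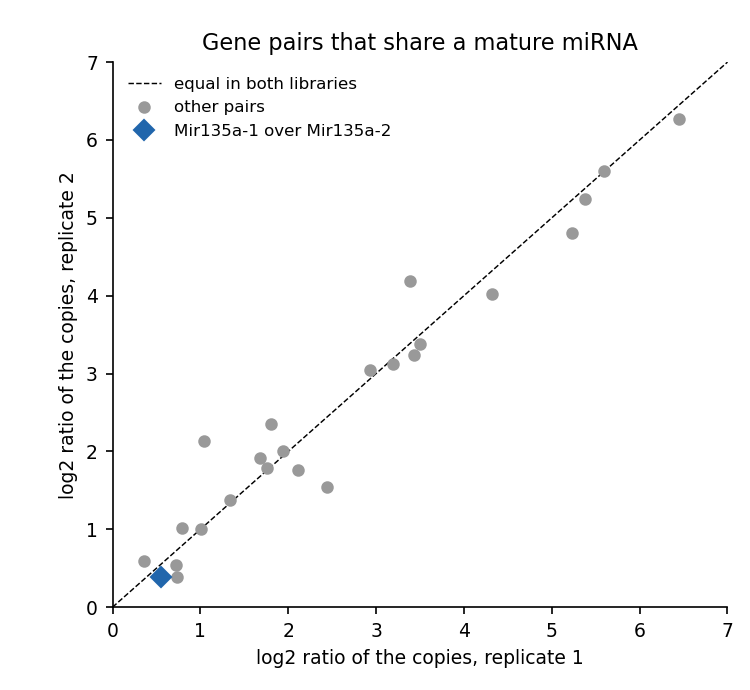
Log2 ratio of the higher over the lower copy in replicate 1 (x axis) and replicate 2 (y axis) for the 24 gene pairs that share a mature strand and had at least 10 summed counts per gene. The dashed line marks equal ratios in both libraries. Mir135a-1 over Mir135a-2, the diamond, lies at 0.56 and 0.39, in the corner of the smallest ratios.

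Genes listed with some mature strands shared and others not, as the Mir135a genes are, numbered 53. Their median level was 53.0 CPM, and 5 had no count in either library. Of these, 16 stood above Mir135a-1 and 20 above Mir135a-2, so both lay in the upper part of this class. The 34 genes whose listed mature strands were all shared had a median of 0 CPM, with 25 (73.5%) at 0 in both libraries. Among the 829 genes with no listed strand shared, 271 (32.7%) were at 0, and the median was 0.528 CPM. Among the 87 genes with any listed strand shared, 30 (34.5%) were at 0, and the median was 7.63 CPM. A lower median with any shared strand was thus not seen, and the cause of the 0 values was not tested.

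The closest miRNA gene to any member was Mirlet7g, a let-7 gene in the same orientation as Mir135a-1 and 24626 bp away on chromosome 9 (106178840 to 106178927). It is the sole miRNA gene within 50 kb of a Mir135 gene. Mirlet7g held 39730 counts in replicate 1 and 37839 in replicate 2, or 10021 ± 978 CPM. That is 98.8-fold and 101-fold the counts of Mir135a-1. Mir1251 shares the host Rmst with Mir135a-2, at a distance of 64954 bp (chromosome 10, 92137140 to 92137223), and was picked after its values were seen. It held 421 and 423 counts, or 109 ± 6.52 CPM, which is 1.54-fold and 1.47-fold the counts of Mir135a-2. Counts of the 2 hairpins within Rmst thus lay closer together than those of the neighbours on chromosome 9. No listed mature strand of Mirlet7g or Mir1251 is shared with another gene, whereas counts of the Mir135a genes leave out reads inside their shared run. These ratios therefore do not compare the output of the hairpins.

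Differences between the pools were small for all 3 genes, and their direction depended on the scaling. By total own-strand counts, Mir135b was 1.11-fold higher in replicate 1 (95% exact interval 1.08 to 1.15), with a two-sided exact binomial adjusted p of 5.18e-13. For Mir135a-1 the ratio was 1.17-fold (1.02 to 1.35) with an exact binomial adjusted p of 0.0533 (0.0385 where at least 100 summed counts were required), and for Mir135a-2 it was 1.04-fold (0.878 to 1.23) with an adjusted p of 0.754. By this test 53.2% of the 444 genes with at least 10 summed counts differed between the libraries (45.3% higher in replicate 1, 7.88% higher in replicate 2), so 1 call among 3 members is near the background. This test asks only whether 2 libraries differ by more than counting chance, and PCR duplicates would make its p too low.

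The median gene was itself on the side of replicate 1, with a log2 ratio of 0.27. Relative to that gene, the log2 ratios were -0.039 for Mir135a-1, -0.11 for Mir135b and -0.21 for Mir135a-2. Under TMM scaling (trimmed mean of M values), which moved all ratios by -0.29, Mir135b was higher in replicate 2, with a log2 ratio of -0.13 and an exact binomial adjusted p of 1.12e-09. The Mir135a genes also turned to the side of replicate 2, at -0.058 (adjusted p = 0.720) and -0.23 (adjusted p = 0.137) by the exact binomial test. Under this scaling 39.9% of genes differed, 18.2% higher in replicate 1 and 21.6% higher in replicate 2. Thus the call for Mir135b has no fixed direction, and its size, at 1.11-fold, lies within the spread of other genes. Among the 50 genes closest to Mir135b in level, the log2 ratio by total counts ran from -0.41 to 1.05 with an SD of 0.31, and 48 of the 50 passed the test. Of the 50 closest to Mir135a-1, 33 had a ratio above its 0.23, and of the 50 closest to Mir135a-2, 44 had one above its 0.057.

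**Figure D4:**
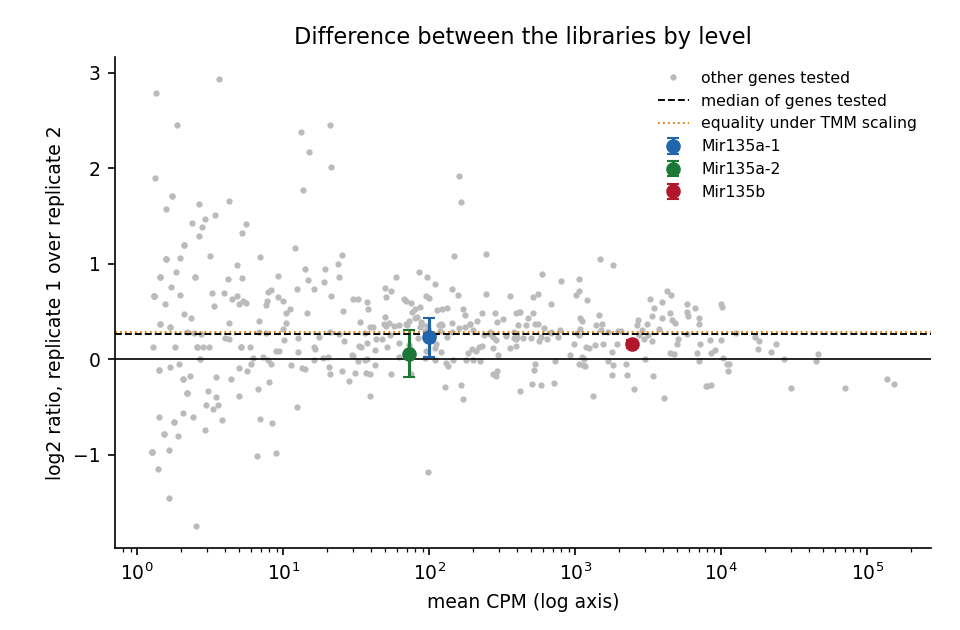
Log2 ratio of replicate 1 over replicate 2 (y axis) against mean CPM (x axis, log) for the 444 genes tested, with 95% exact intervals on the Mir135 genes. The dashed line is the median gene at 0.27, and the dotted line marks equality under TMM scaling. All 3 Mir135 genes lie between equality of total counts and the dashed line.

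In level and in ratio together, the genes most like Mir135b were Mir381 (2717 ± 340 CPM), Mir22 (2644 ± 461 CPM) and Mir139 (2228 ± 53.5 CPM). Likeness was the distance in mean log2(CPM + 1) and log2 ratio over the 2 libraries, which were the only points available. For Mir135a-1 they were Mir199a-2, Mirlet7c-1 and Mir132, at 96.5 to 108 CPM. For Mir135a-2 they were Mir192, Mir702 and Mir34a, at 73.1 to 76.3 CPM. By mean level alone, Mir135b ranked between Mir106a (2541 ± 392 CPM) and Mir363 (2267 ± 184 CPM). Mir135a-1 ranked between Mir132 (108 ± 13.9 CPM) and Mir672 (99.0 ± 30.8 CPM), and Mir135a-2 between Mir666 (72.3 CPM) and Mir6944 (70.3 CPM). These neighbours in rank were chosen by closeness in level, so their overlap with the members over the libraries was largely fixed in advance. Mir139, the second gene below Mir135b, did not overlap it, at 2190 and 2266 CPM.

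Genes known as neural give the setting of the tissue. Of 17 such genes with a row, 2 stood above Mir135b, namely Mir219a-2 (7100 ± 1480 CPM) and Mir92b (4979 ± 383 CPM), and 11 stood above Mir135a-1. The test called 10 of the 17 as higher in replicate 1 and 0 as higher in replicate 2, beside 45.3% and 7.88% of all genes tested. Their median log2 ratio was 0.30 against 0.27 over all genes tested. TMM scaling gave 3 and 5, beside 18.2% and 21.6% of all genes. Among 27 genes of brain families with several copies, 3 stood above Mir135b, led by Mir219a-2 and Mir181a-1 (4037 ± 803 CPM), and 14 above Mir135a-2. Of the 25 tested, 13 were called higher in replicate 1 and 1 in the other library, beside the same 45.3% and 7.88%, with a median of 0.33. TMM scaling gave 5 and 5, beside 18.2% and 21.6%.

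The dissection also held markers of other tissues. All 8 neural markers with a row were detected. Mir9-2 and the 3 Mir124a genes were at 10.5 CPM or less, while Mir9-3 was at 200.1 CPM. Stretches of 22 nt also found in another miRNA hairpin were 24 of 51 in Mir9-2 and 9 of 69 in Mir9-3. They were 21 of 64 in Mir124a-1, 26 of 88 in Mir124a-2 and 20 of 47 in Mir124a-3. Counts of these genes leave out reads inside such stretches, so their low values do not show that miR-9 or miR-124 was scarce. The neural markers summed to 8501 CPM in replicate 1 and 7385 CPM in replicate 2. Endothelial Mir126a alone gave 24945 and 22302 CPM, the 4 mesenchyme and cartilage genes 17484 and 12256 CPM, and the 7 epithelial genes 4063 and 3670 CPM. The 4 blood genes summed to 802 and 568 CPM and the 5 muscle genes to 1419 and 897 CPM, where Mir133a-1 and Mir133a-2 were at 0. Because reads that fit several copies were counted for no gene, a 0 for such named copies does not show absence. Most of the muscle sum was Mir206 (1358 and 761 CPM), and Mir208b went the other way (60.1 and 136 CPM). Liver Mir122 was at 7.82 and 7.89 CPM. The sums hold only reads tied to a single gene, so they do not rank the tissues by amount of RNA. In bulk tissue fewer cells of a type and less RNA per cell cannot be told apart. The part of these tissues in the Mir135 counts was not tested.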

How the data were processed

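Small RNA of 2 libraries was analysed. Per the file headers, the deposited tables refer to mm10 and GENCODE M4 and hold raw counts of reads for each miRNA gene. Which aligner, counter and trimming step were used is not given in the sources used here. Unnamed columns were read as counts on either, own and opposite strand, because the first is the sum of the other two for every gene. Own-strand gene counts were 3708662 of 8530505 reads in replicate 1 and 4055883 of 7655421 in replicate 2, and all other reads (56.5% and 47.0%), which name no gene, were left out. No column (0) remained without a sample.

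GENCODE M21 (GRCm38, the same assembly) gave symbols and positions for 1894 of 1973 rows. RefSeq gave sequences, with a mature strand for 916 genes. Genes with at least 10 summed counts were compared between the libraries by the exact binomial test, two-sided, with Benjamini-Hochberg adjustment at 0.05. The pseudocount of log2 ratios was 0.5. The quasi-likelihood test of edgeR needs replicates per condition and was not run. The binomial test was tested on simulated data that held counting noise alone. That simulation leaves out further spread and any shift in scaling between the pools, so it does not show how the test behaves under them. Scaling factors were taken from edgeR 4.0.16 (TMM) and DESeq2 1.42.0 in R 4.3.3. Other steps used Python 3.11.15 with scipy 1.17.1 and Biopython 1.88. Other genes named were miRNA genes within 50 kb, those next to a member in level, the 3 most alike and leading genes of each list (neural genes, brain families with several copies, markers of 7 tissues). The members and lists were chosen with earlier results of these data known.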

Additional observations from a re-analysis of the deposited data

How the results depend on the processing

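The levels of the 3 Mir135 genes stayed within the SD of the replicates under TMM scaling, DESeq2's size factors and counts of either strand. This was largely fixed in advance, because both scalings move the 2 libraries in opposite directions and hardly move their mean. Counting either strand changed only the library totals, as the opposite strand of the 3 hairpins held 0 counts. The share of Mir135b in the family could therefore not change with it. The number of genes called in either direction stayed within 1.5-fold of 236 under both scalings and both filters, from 177 to 229. By direction it did not, with 201 higher in replicate 1 and 35 in replicate 2 by total counts against 81 and 96 under TMM scaling. Leaving out a replicate put Mir135b at 2325 to 2589 CPM, Mir135a-1 at 92.5 to 108 CPM and Mir135a-2 at 70.8 to 73.6 CPM. The direction between the libraries did depend on scaling. For TMM and for DESeq2's size factors the log2 ratio of replicate 1 over replicate 2 turned to -0.058 and -0.039 for Mir135a-1, to -0.23 and -0.21 for Mir135a-2 and to -0.13 and -0.11 for Mir135b. With at least 100 summed counts required, Mir135a-1 passed at the same log2 ratio of 0.23 (exact binomial adjusted p = 0.0385), since fewer genes were then tested. Over its alternatives the adjusted p ran from 0.0385 to 0.830. Per nucleotide of hairpin, the log2 ratio of Mir135b over Mir135a-1 was 4.51 in place of 4.61. The median level of genes with a shared mature strand was 7.63 CPM over all such genes and 67.0 CPM among those with any count. The depth limits the Mir135a genes, whose Wilson intervals are given with their levels.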

Other observations

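The Mir7 family has the same arrangement as the Mir135 family, with Mir7-1 and Mir7-2 sharing a mature strand and Mir7b as a further gene. It was picked after its values were seen. There the further gene did not lead, with Mir7b at 146 ± 0.442 CPM, below Mir7-1 at 211 ± 41.6 CPM and above Mir7-2 at 82.2 ± 17.6 CPM. In other families the further gene did lead, so a lead as that of Mir135b is not particular to its family. Mir26b was at 10878 CPM, above Mir26a-2 (31.2 CPM) and Mir26a-1 (8.90 CPM). Mir107 was at 1250 CPM, above Mir103-2 (62.4 CPM) and Mir103-1 (6.86 CPM). These families were also picked after their values were seen, and families of either order were not counted. How many reads each family had among those mapped to several places was not analysed here, and the difference between the families was not tested.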
